A study of Mus musculus with 7 samples.

Results

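The mammary epithelial lineage transcription factors described here are 10 genes, Gata3, Foxa1, Elf5, Stat5a, Stat5b, Ehf, Elf3, Cebpb, Id2 and Sox9. They were chosen for their roles in the gland and not by a rule on their values, but with earlier results of these data known. A gene probe of the array was assigned to a factor through the RefSeq accession of the probe. Of the 10 factors, 8 had a probe, 1 each, among 13971 genes and 34967 gene probes in all. No probe was matched to Stat5b or Sox9, and these factors were not analysed here. Each of the 8 probes was called good, that is above the local background, on all 7 arrays.

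Mouse mammary glands were kept in organ culture and their RNA was hybridized to whole-genome CodeLink arrays, which are 1-colour oligonucleotide arrays, with 1 array per group. The glands labelled αERKO are from mice with the gene of ERα deleted and those labelled βERKO from mice with the gene of ERβ deleted, both of C57BL6/129SV background, whereas the wild-type (WT) glands came from C57 mice, so that strain background and knockout cannot be told apart. WT glands were cultured for 24 days with DMBA, a polycyclic aromatic hydrocarbon carcinogen, or without it for 10 or 24 days, and wild-type BALB/c glands were cultured for 24 days with or without vitamin D5. All mice were 4-week-old females. One passage of the labels gives a pretreatment of 9 days, with estrogen at 1 µg and progesterone at 1 mg, and another gives 5 daily treatments, with EGF at 25 ng and progesterone at 1 mg, and the study's text names EGF and progesterone for the WT, αERKO and βERKO glands it compared on arrays. For the other 4 arrays the pretreatment is not given in the sources used here. The glands then had a growth phase of 10 days with insulin, prolactin, aldosterone and hydrocortisone. In the 24-day cultures a regression phase of 14 days with insulin alone followed. The protocol gives 2 µg/ml DMBA for 24 h on day 3, and the study's text describes the WT, αERKO and βERKO glands of its array comparison as treated with DMBA, although the titles name it for the WT array only. Whether the BALB/c glands received it, and the dose of vitamin D5, are not given in the sources used here. RNA of 5 mice was pooled for each of the αERKO, βERKO and DMBA-treated WT arrays. The study reports preneoplastic lesions in the WT and βERKO glands of these arrays and none in the αERKO glands. It also describes the response of αERKO glands to EGF and progesterone as weaker than that of WT and βERKO glands. Lesions, duct growth and genotype cannot be told apart in the comparisons of the αERKO array. With 1 array per group, no difference given here has a replicate check and no test was run. The spread of log2 ratios between different probes of the same transcript (technical SD) was used instead as a measure of technical error. It covers neither mice nor cultures. The ratios of all genes spread wider than this in each comparison. Their median absolute deviation, scaled to the size of an SD, was 0.32 to 0.83, against technical SDs of 0.23 to 0.60. The share of genes beyond the technical SD was not counted, so a factor beyond it is not thereby set apart from other genes.

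Luminal cells of the mammary epithelium line the ducts and alveoli, and basal cells surround them. Gata3 and Foxa1 act in luminal cells, and Foxa1 opens chromatin for ERα in those that sense estrogen. Prolactin acts through its receptor and JAK2 to activate STAT5, and STAT5 and the ETS factor Elf5 drive the alveolar, milk-producing fate. Cebpb and Id2 are each needed for the growth of lobules and alveoli in pregnancy.

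The 7 arrays had medians of 39.1 to 53.0 in gene probe intensity, and the good calls covered 68.4% to 74.2% of gene probes. The general epithelial markers Epcam, Krt8 and Krt18 were good on all 7 arrays. The Esr1 probe, for the gene of ERα, was good on the arrays of DMBA-treated WT glands and of BALB/c glands with vitamin D5 and not on the others, so it does not separate αERKO from most WT arrays. The Esr2 probe, for the gene of ERβ, was good on the array labelled βERKO, at 0.87 on the log2 scale, and on that of WT glands at 24 days without DMBA, at -0.55. The βERKO array is therefore called the array labelled βERKO.

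Levels are given as the log2 of intensity over the median intensity of gene probes on the same array, so that a level of 0 is that median. Levels of different probes cannot be compared with each other. On this scale Gata3 and Foxa1 stayed level across the arrays (centred on epithelial genes they did not, as given with the αERKO comparisons), Elf5, Ehf, Cebpb and Id2 were far lower on the αERKO array than on the other 6, and Stat5a and Elf3 followed neither pattern.

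Gata3, a zinc finger factor needed to keep the luminal fate, stayed at one level. Its probe (GE34460) read 5.05 on the αERKO array, 4.77 on that labelled βERKO, 4.93 on DMBA-treated WT glands, 5.04 and 4.92 on WT glands at 10 and 24 days without DMBA, and 4.98 and 4.97 on BALB/c glands without and with vitamin D5. The range was 0.28, and only 1.58% of the 9338 genes good on all 7 arrays had a range as narrow, against a median range of 1.05. Foxa1, the forkhead factor of hormone-sensing cells, was flatter still. Its probe (GE36407) read 2.33 (αERKO), 2.18 (labelled βERKO), 2.30 (WT with DMBA), 2.19 (WT 10 days), 2.23 (WT 24 days), 2.15 (BALB/c) and 2.25 (BALB/c with vitamin D5), a range that 0.17% of genes matched. The αERKO array was the highest of the 7 for both factors. For both, each of the 6 gaps between neighbouring arrays in the order of levels was smaller than the technical SD of that pair of arrays. Each factor had 1 probe, and whether a signal this flat is specific to its transcript was not tested.

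**Figure D1:**
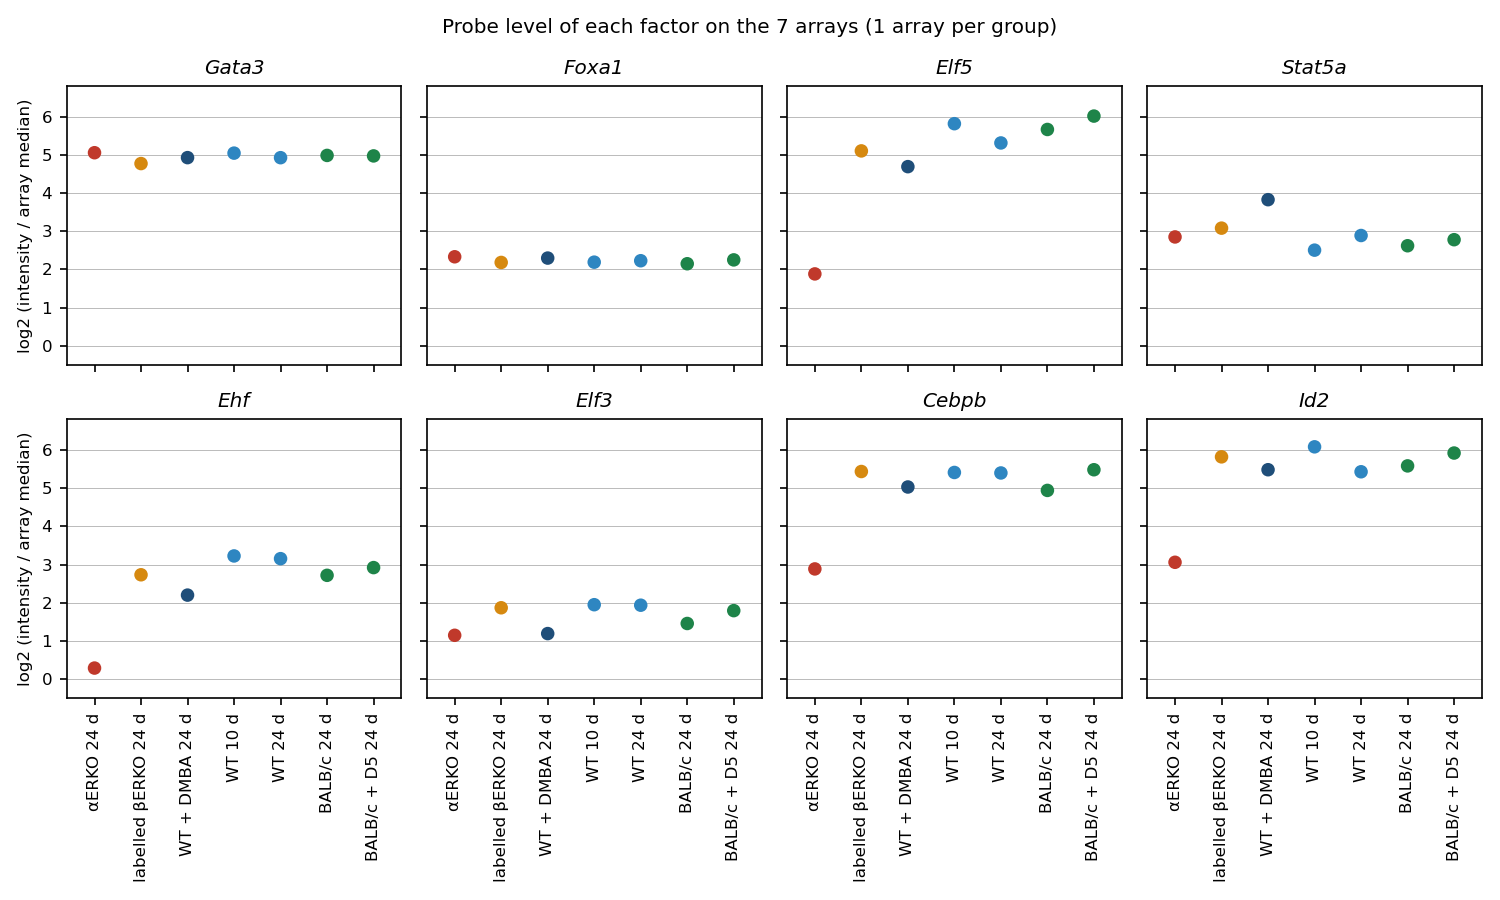
Level of each factor's probe on each of the 7 arrays, as log2 of intensity over the array median; each point is 1 array, and there are no error bars because each group has 1 array. Elf5, Ehf, Cebpb and Id2 lay lowest on the αERKO array by 1.91 to 2.81 on the log2 scale, whereas Gata3 and Foxa1 spanned 0.28 and 0.18 in all.

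Elf5, the ETS factor of alveolar secretory cells, had the widest range of the 8 factors. Its probe (GE35351) read 1.88 on the αERKO array, 5.10 on that labelled βERKO, 4.69 on DMBA-treated WT glands, 5.81 and 5.31 on WT glands at 10 and 24 days, and 5.66 and 6.01 on BALB/c glands without and with vitamin D5. The lowest and highest arrays were 17.5-fold apart, and 97.4% of genes had a range as narrow or narrower. Without the αERKO array the range was 1.32, between DMBA-treated WT and vitamin D5-treated BALB/c glands. The step from the DMBA-treated WT array down to the αERKO array, 2.81, was over 4 of the technical SDs of that pair (0.60). Among the upper 6 arrays, 3 of 5 steps passed the technical SD, all by less than 0.05.

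Stat5a, the signal transducer activated by the prolactin receptor, did not follow Elf5. Its probe (GE36151) read 2.85 (αERKO), 3.08 (labelled βERKO), 3.83 (WT with DMBA), 2.51 (WT 10 days), 2.89 (WT 24 days), 2.62 (BALB/c) and 2.78 (BALB/c with vitamin D5). The DMBA-treated WT array was the highest, 0.74 above the array labelled βERKO, with a technical SD of 0.37 for that pair. The other 5 steps were within the technical SD, and the αERKO array lay between those of WT glands at 24 days and of BALB/c glands with vitamin D5.

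Ehf and Elf3 are ETS factors largely restricted to epithelia, and Elf3 is inducible by inflammation. The Ehf probe (GE34997) read 0.29 (αERKO), 2.73 (labelled βERKO), 2.20 (WT with DMBA), 3.22 (WT 10 days), 3.15 (WT 24 days), 2.72 (BALB/c) and 2.92 (BALB/c with vitamin D5). Its range was 7.64-fold, with the αERKO array lowest by 1.91 and the DMBA-treated WT array next. The Elf3 probe (GE34329) read 1.15 (αERKO), 1.87 (labelled βERKO), 1.19 (WT with DMBA), 1.95 (WT 10 days), 1.94 (WT 24 days), 1.46 (BALB/c) and 1.79 (BALB/c with vitamin D5). Here too the αERKO and DMBA-treated WT arrays were the lowest, but they were 0.04 apart, within the technical SD of 0.60.

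Cebpb, a bZIP factor, and Id2, an HLH protein that holds bHLH factors off DNA, had similar profiles over the 7 arrays. The Cebpb probe (GE35206) read 2.88 (αERKO), 5.43 (labelled βERKO), 5.03 (WT with DMBA), 5.41 (WT 10 days), 5.40 (WT 24 days), 4.94 (BALB/c) and 5.48 (BALB/c with vitamin D5). The Id2 probe (GE118938) read 3.06 (αERKO), 5.82 (labelled βERKO), 5.48 (WT with DMBA), 6.08 (WT 10 days), 5.43 (WT 24 days), 5.58 (BALB/c) and 5.92 (BALB/c with vitamin D5). The αERKO array was lowest by 2.05 for Cebpb and by 2.37 for Id2. The other 6 arrays spanned 0.54 for Cebpb and 0.65 for Id2.

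The αERKO array was the lowest of the 7 by over 2-fold for 4 of the 8 factors, Elf5, Ehf, Cebpb and Id2, and it was so for 6.41% of the 13244 genes good on at least 1 array. For no factor did both knockout arrays lie beyond all 5 wild-type arrays, in the same direction, where 13.3% of genes did.

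The sequences before the starts of Elf5, Cebpb and Id2 are shown because these 3 factors moved together on the αERKO array. The RefSeq promoter table (GRCm38.p6) held 11 starts of 8 of the 10 factors; Ehf and Sox9 had no entry. The 250 bases before each start were searched on both strands for TTCNNNGAA (STAT factors), CCGGAAG (ETS factors), TTGCGCAA (C/EBP), AGATAA (zinc finger factors such as Gata3), TGTTTAC (forkhead factors) and CAGCTG (an E-box bound by bHLH factors). Each line gives the strand of the gene, 5′ to 3′, with a CAGCTG match in capitals.
Elf5, first of 2 starts, chr2:103411848-103412097, plus strand: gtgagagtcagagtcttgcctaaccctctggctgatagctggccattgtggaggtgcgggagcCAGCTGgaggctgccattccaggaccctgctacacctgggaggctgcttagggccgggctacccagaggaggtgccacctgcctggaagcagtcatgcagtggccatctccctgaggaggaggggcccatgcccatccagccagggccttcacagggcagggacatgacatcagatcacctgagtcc
Cebpb, chr2:167688665-167688914, plus strand: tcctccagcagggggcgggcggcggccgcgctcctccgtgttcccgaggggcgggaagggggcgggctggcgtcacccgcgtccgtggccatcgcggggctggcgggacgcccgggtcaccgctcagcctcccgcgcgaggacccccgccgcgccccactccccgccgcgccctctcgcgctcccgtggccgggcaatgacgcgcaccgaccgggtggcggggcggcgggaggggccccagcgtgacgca
Id2, chr12:25096093-25096342, minus strand: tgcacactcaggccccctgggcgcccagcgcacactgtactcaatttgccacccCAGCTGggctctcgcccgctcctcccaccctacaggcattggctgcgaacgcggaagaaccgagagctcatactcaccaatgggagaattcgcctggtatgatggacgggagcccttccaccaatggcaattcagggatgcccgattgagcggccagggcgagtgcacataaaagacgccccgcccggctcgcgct
CAGCTG began 187 bases before the start of Elf5 and 196 bases before that of Id2, and none of the 6 motifs was found in the 250 bases of Cebpb. The second start of Elf5 held no match to any of the motifs. CAGCTG was also found before 1 of the 2 starts each of Stat5a and Stat5b, so that 4 of 11 starts held it, and so did 13.0% of 32851 promoters of this length. TGTTTAC was found before the start of Foxa1 alone among the factors (3.17% of promoters). The STAT, ETS, C/EBP and Gata3 motifs were found before none of the 11 starts, and in 7.02%, 6.91%, 0.164% and 9.99% of all promoters. The matches overlapped no other motif of the search, and they describe letters, not bound sites. In RefSeq's gene order Ehf lies next to Elf5 on chromosome 2, and Stat5a lies between Stat5b and Stat3 on chromosome 11.

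The first comparison asks how the factors differed between αERKO and WT glands. On the αERKO array, 4 of 8 factors were over 2-fold lower than on the DMBA-treated WT array and none was over 2-fold higher, where 25.4% of 12189 genes passed 2-fold either way and 15.2% were over 2-fold lower. Elf5 was 7.00-fold lower (log2 ratio -2.81), Id2 5.36-fold (-2.42), Cebpb 4.42-fold (-2.14) and Ehf 3.76-fold (-1.91), each beyond the technical SD of 0.60. Stat5a had a ratio of -0.98, just inside 2-fold. Gata3 (0.13), Foxa1 (0.03) and Elf3 (-0.04) were within the technical SD. The median over the 8 factors was -1.44, and over all genes -0.17.

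Against the array labelled βERKO, which asks how αERKO glands differed from βERKO glands and shares the αERKO array with the first comparison, 4 of 8 factors were again over 2-fold lower, where 32.0% of genes passed 2-fold and 20.2% were lower. Elf5 was 9.31-fold lower, Id2 6.77-fold, Cebpb 5.85-fold and Ehf 5.43-fold, with a technical SD of 0.56 on the log2 scale. Elf3 had a log2 ratio of -0.72, Stat5a of -0.23, Gata3 of 0.28 and Foxa1 of 0.15.

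**Figure D2:**
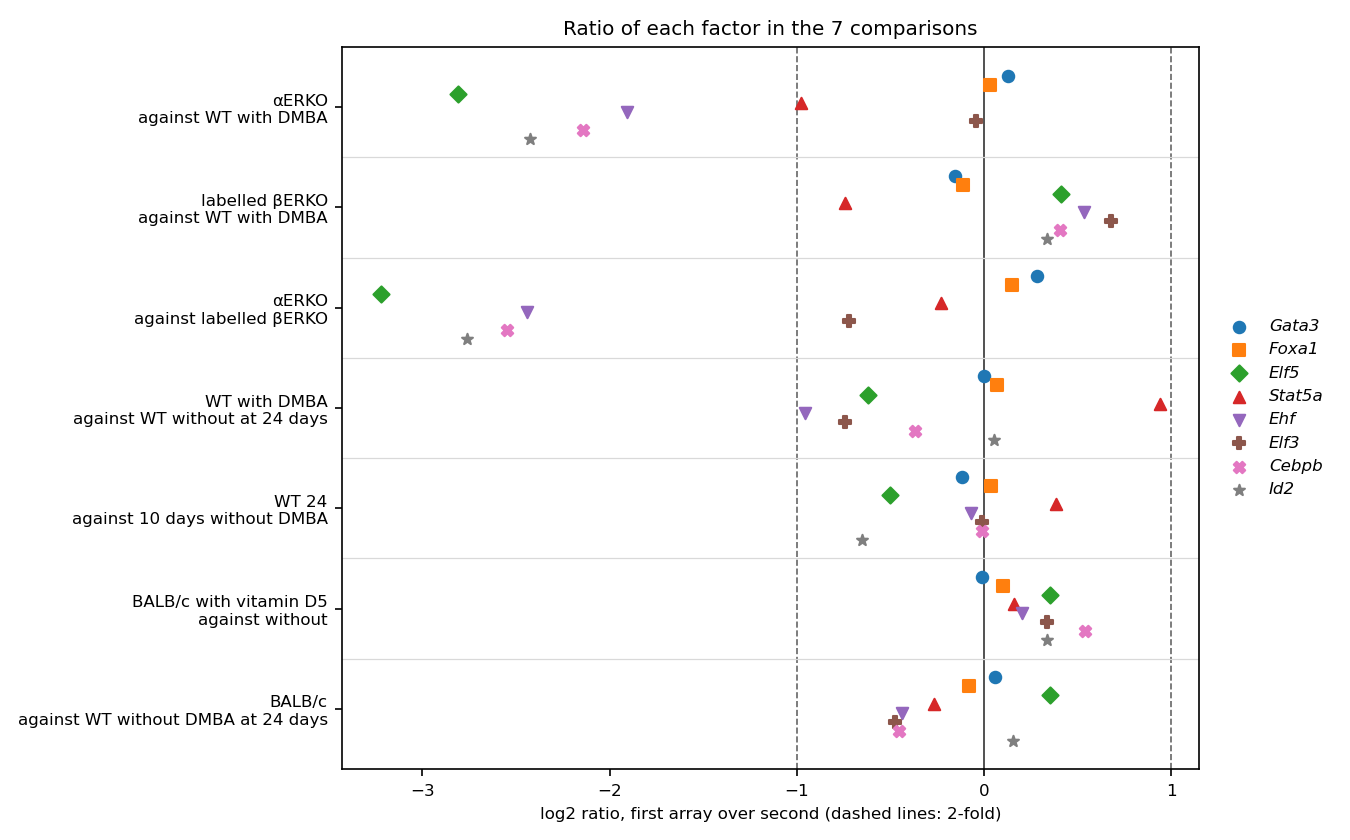
Log2 ratio of each factor in the 7 comparisons, first array over second, with dashed lines at 2-fold. Points are single ratios of 2 arrays, without error bars. Elf5, Ehf, Cebpb and Id2 passed 2-fold in both comparisons of the αERKO array, and no point passed it in the other 5.

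Marker genes of several other cell types differed widely between the same arrays. On the αERKO array all 13 measured skeletal muscle genes were over 2-fold higher than on the DMBA-treated WT array, with a median log2 ratio of 7.76. Their summed intensity, in units of the array median, was 2423 on the αERKO array and between 10.85 and 53.1 on the other 6, and 7 of the 13, among them Ckm, Myh4, Actn3 and Pvalb, were not called good on the DMBA-treated WT array. Of 9 lymphocyte genes, a list that holds Gata3 itself, 5 were over 2-fold higher, among them the T cell genes Cd3d (4.72), Cd2 (4.02) and Lck (3.62), and their sum was 107 on the αERKO array and between 44.9 and 49.9 on the others, while the defining T cell gene Cd3e was called good on none. Of 14 adipocyte genes 4 were over 2-fold higher and 0 lower (28.57%). Among all genes 25.4% passed 2-fold either way and 15.2% were over 2-fold lower. A positive ratio was found for 13 of the 14, with a median of 0.44, where the median of all genes was -0.17. All 6 measured macrophage genes were over 2-fold lower. The part of these markers in the ratios of the factors was not tested. In RNA of whole glands, fewer cells of a type and less RNA per cell cannot be told apart.

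General epithelial markers were also lower on the αERKO array. Of 23 such genes, 12 were over 2-fold lower than on the DMBA-treated WT array and 0 higher, with a median log2 ratio of -1.07 and single ratios from -4.91 (Esrp1, a splicing regulator) to 0.89 (Krt7). Their median level was 2.96 on the αERKO array, 4.54 on that labelled βERKO and on DMBA-treated WT glands, and between 4.49 and 5.30 on the other 4 arrays. Their summed intensity was 779.9 on the αERKO array and between 1075 and 2190 on the others. Against the array labelled βERKO, 17 of the 23 were over 2-fold lower and 0 higher (median -1.72). All 13 skeletal muscle genes were over 2-fold higher. Of 9 reference (housekeeping) genes, 2 were over 2-fold lower than on the DMBA-treated WT array and 0 higher (22.22%, median -0.33). Against the array labelled βERKO 3 were lower and 0 higher (33.33%, median -0.78). Among all genes 25.4% and 32.0% passed 2-fold either way. In the comparison with DMBA-treated WT glands, 2 of the 23 genes, Esrp1 and Perp, had a lower ratio than Elf5, Id2 and Cebpb, and 3 had a lower ratio than Ehf. Esrp1 was low on both knockout arrays. It read 0.83 on the αERKO array, 1.30 on that labelled βERKO and 5.74 to 6.91 on the wild-type arrays. Only 3 of the 23 had a higher ratio than Gata3 or Foxa1.

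The ratios of the factors relative to the epithelial markers therefore differed in place and in sign from those relative to all genes. When each array was centred on the median level of the 23 epithelial genes, which moved the median ratio of all genes to 1.41, Elf5 stayed over 2-fold lower on the αERKO array than on the DMBA-treated WT array (-1.22), while Id2 (-0.84), Cebpb (-0.56) and Ehf (-0.32) came inside 2-fold. Gata3 (1.71), Foxa1 (1.62) and Elf3 (1.54) were then over 2-fold higher, and Stat5a turned to 0.61. Under this centring 71.5% of all genes were over 2-fold higher and 1.83% lower. When the median of the 23 genes' own ratios was subtracted instead, a setting chosen after the data were seen, Elf5 (-1.73), Id2 (-1.35) and Cebpb (-1.07) were over 2-fold lower, Ehf was at -0.83, and Gata3 (1.20), Foxa1 (1.11) and Elf3 (1.03) were over 2-fold higher, where 44.7% of all genes were higher and 3.32% lower. Against the array labelled βERKO, centring on epithelial genes left Elf5 (-1.64) and Id2 (-1.18) over 2-fold lower, with Cebpb at -0.97 and Ehf at -0.86, and put Gata3 (1.86), Foxa1 (1.73) and Stat5a (1.35) over 2-fold higher, where 63.8% of all genes were higher and 2.32% lower. With the median epithelial ratio of that comparison (-1.72) subtracted instead, Gata3, Foxa1, Stat5a and Elf3 were over 2-fold higher and Elf5 and Id2 lower. There 70.3% of all genes were higher and 1.97% lower. In each of these settings the share of factors over 2-fold higher was thus no larger than that of all genes. On the lower side Elf5 passed 2-fold in each, where 1.83% to 3.32% of all genes did.

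**Figure D3:**
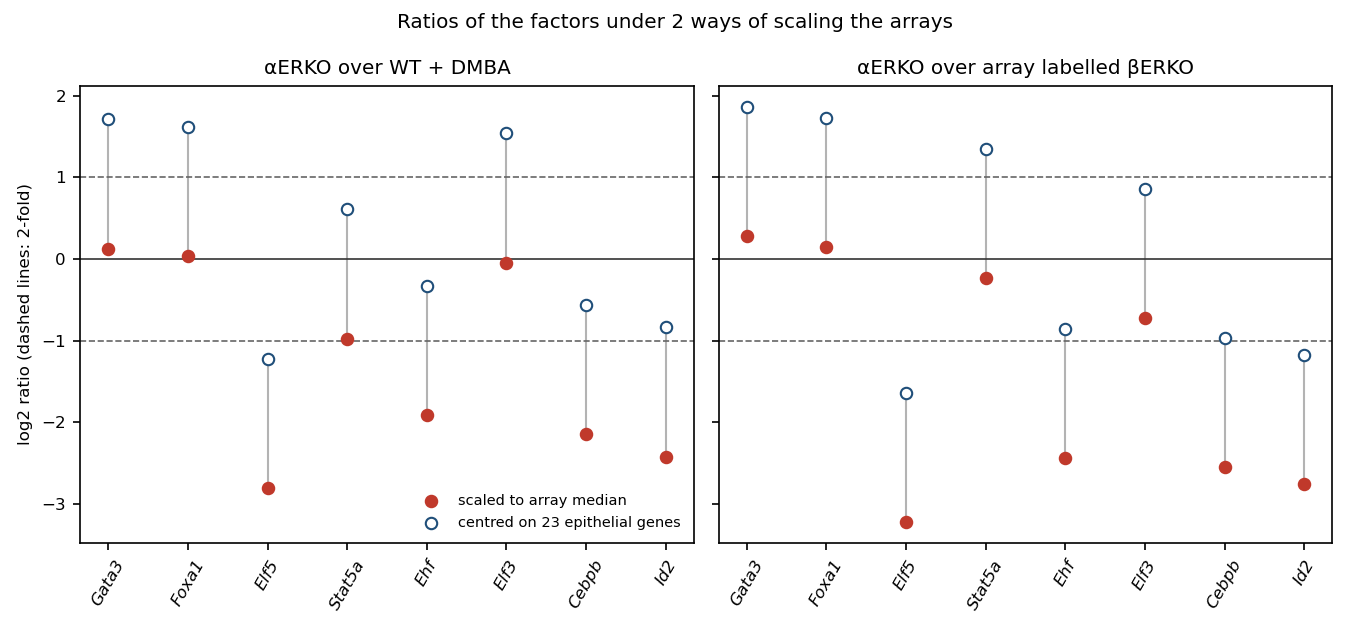
Log2 ratio of each factor on the αERKO array over the DMBA-treated WT array (left) and over the array labelled βERKO (right), scaled to the array median (filled) or centred on 23 epithelial genes (open), with dashed lines at 2-fold. Elf5 lay below the lower line under both scalings in both panels, and Gata3 and Foxa1 moved from near 0 to above the upper line.

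**Figure D4:**
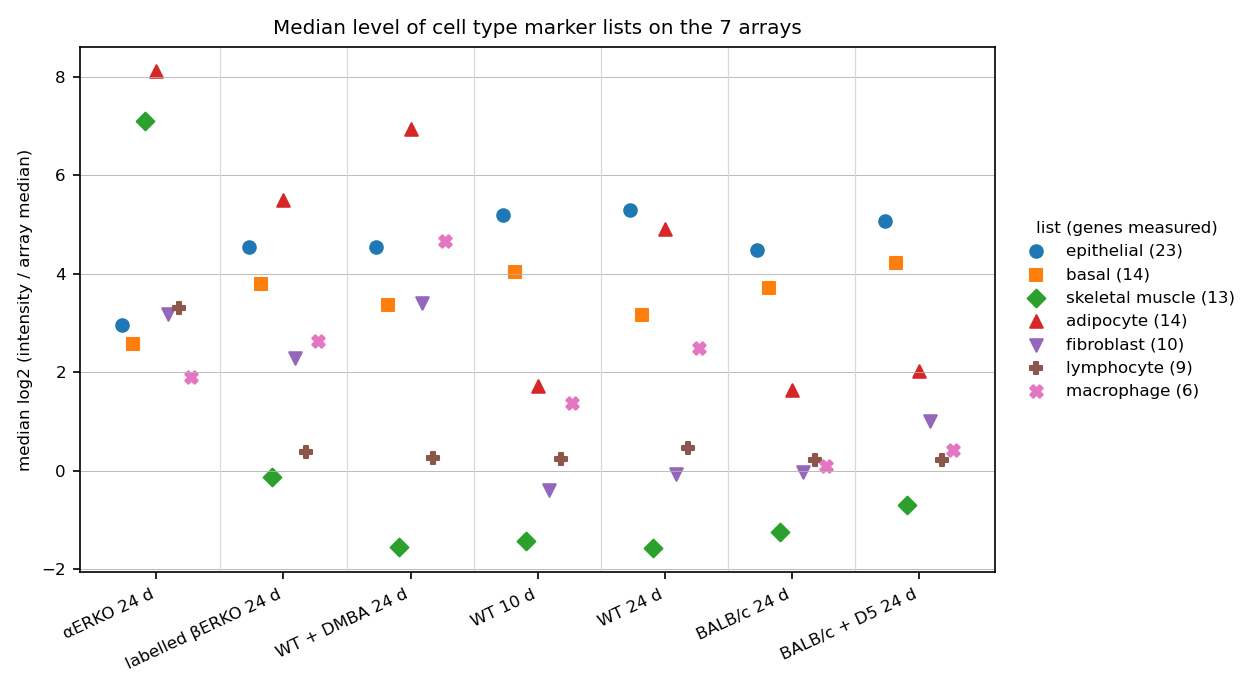
Median level of the genes of 7 cell type marker lists on each of the 7 arrays, as log2 of intensity over the array median; each point is the median over the measured genes of a list on 1 array. The αERKO array stood apart with the lowest epithelial median (2.96) and the highest skeletal muscle median (7.10).

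Other genes of the mammary lineages were counted on the same arrays. Of 38 other mammary transcription factors, 9 had a log2 ratio under -1 in αERKO against DMBA-treated WT glands, that is over 2-fold lower, and 2 were over 2-fold higher, together 28.95% of the list, near the 25.4% of all genes. Among the largest differences in genes good on both arrays were those in Cited4 (-3.74), a transcriptional cofactor, the Notch target Hey1 (-2.61) and the epithelial factor Grhl2 (-1.71). Of 22 relatives in the GATA, FOXA, STAT, ETS, C/EBP, ID and SOX families, 5 were over 2-fold lower and 1 higher (27.27%). A negative ratio was found for 14 of the 22, and the median was -0.18. The largest difference was in Stat3 (-2.66), which acts in involution of the gland, followed by Stat4 (1.49), Elf1 (-1.29) and Cebpd (-1.15). Of 8 luminal progenitor markers 5 were lower and 1 higher, of 12 hormone-sensing markers 3 were lower and 2 higher, and of 14 basal markers 7 were lower and 0 higher.

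Genes of the prolactin and STAT5 pathway, a list not limited to downstream targets, moved in both directions. Of 24 genes of this list, 9 were over 2-fold lower in αERKO than in DMBA-treated WT glands and 4 higher (54.17%, against 25.4% of all genes). The caseins Csn1s1 (-4.99) and Csn1s2a (-4.82) and Tnfsf11 (-3.95), which encodes the RANK ligand, were lower, while Glycam1 was higher (4.55). Glycam1 was highest on the αERKO array, where the T cell genes Cd3d, Cd2 and Lck were also higher. The source of its signal was not tested. The prolactin receptor gene Prlr read 2.79 on the αERKO array, 2.05 on that labelled βERKO and 2.86 on DMBA-treated WT glands, and Jak2, the kinase of that receptor, read 0.26, -0.24 and 0.34. Of 14 milk genes, which share members with the pathway list, 8 were lower and 2 higher (71.43%). Between the array labelled βERKO and DMBA-treated WT glands, Csn1s1 and Csn1s2a had log2 ratios of -3.55 and -3.88, where Elf5 stood at 0.41 and Stat5a at -0.74.

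The comparison of the array labelled βERKO with DMBA-treated WT glands, which shares both arrays with the comparisons above, found 0 of 8 factors over 2-fold, where 13.9% of genes were. Elf3 (0.68), Ehf (0.53), Elf5 (0.41) and Cebpb (0.41) were higher and Stat5a (-0.74) was lower by more than the technical SD of 0.37. Id2 (0.34), Gata3 (-0.16) and Foxa1 (-0.11) were within it. The scaled median absolute deviation of all genes was 0.44. Skeletal muscle genes were over 2-fold higher for 6 of 8 measured, squamous genes for 6 of 8, and fibroblast genes over 2-fold lower for 7 of 10. Their part in these ratios was not tested. Centred on the epithelial genes, the ratios hardly moved (Elf5 0.42, Cebpb 0.41, Stat5a -0.74) and 0 of 8 passed 2-fold. With the median ratio of the 23 epithelial genes (0.40) subtracted instead, Elf5 came to 0.02 and Cebpb to 0.01, and Stat5a passed 2-fold, at -1.14, where 12.2% of all genes were over 2-fold lower.

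WT glands with and without DMBA at 24 days differ in the carcinogen treatment within one strain, and here too 0 of 8 factors passed 2-fold, where 19.4% of genes did. Pretreatment and pooling are given for the array with DMBA and not for the one without. A difference in either could not be told apart from DMBA. The array with DMBA also served the knockout comparisons, and the one without also serves those of time and strain. Stat5a was 1.92-fold higher with DMBA (0.94), the only factor higher by more than the technical SD of 0.31. Ehf (-0.95), Elf3 (-0.74), Elf5 (-0.62) and Cebpb (-0.37) were lower by more than that SD, and Id2 (0.05), Foxa1 (0.07) and Gata3 (0.00) were not. All genes had a scaled median absolute deviation of 0.59, wider than that SD. Of the 23 epithelial genes 13 were over 2-fold lower with DMBA and 0 higher (median -1.04), and all 7 endothelial genes, 9 of 10 fibroblast genes and 11 of 14 adipocyte genes were over 2-fold higher. The summed intensity of the fibroblast genes was 259.6 with DMBA and 24.8 without. The part of these markers in the ratios of the factors was not tested. Relative to the epithelial centring, Stat5a was over 2-fold higher (1.70) and Elf5 turned to 0.14, Ehf was at -0.20 and Elf3 at 0.02, where 27.6% of all genes were over 2-fold higher. With the median epithelial ratio subtracted, Stat5a (1.98), Foxa1 (1.11), Id2 (1.10) and Gata3 (1.05) were over 2-fold higher and Ehf turned to 0.09, where 42.4% of all genes were over 2-fold higher. With quantile or cyclic loess normalization Stat5a also passed 2-fold, at 1.02 and 1.10.

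Between 10 and 24 days of culture without DMBA, that is between the end of the growth phase and the end of regression, 0 of 8 factors passed 2-fold, where 9.81% of genes did. Id2 was 1.57-fold lower at 24 days (-0.65) and Elf5 1.42-fold lower (-0.50), while Stat5a was 1.30-fold higher (0.38), each by more than the technical SD of 0.23. The other 5 factors differed by 0.12 or less. The scaled median absolute deviation of all genes was 0.37. On the same arrays, at 10 and then 24 days, the casein gene Csn2 read -1.34 and 5.39, Csn1s2a 0.70 and 3.43, and Csn3 5.89 and 8.05, while Ltf, the lactoferrin gene, had a log2 ratio of -2.76. Csn2 was called good on 4 of the 7 arrays, namely the 3 WT arrays and that of BALB/c glands with vitamin D5. General epithelial genes were nearly level, with 1 of 23 over 2-fold lower and a median of 0.11. Of 14 basal genes 5 were over 2-fold lower at 24 days and 2 higher, 6 of 8 squamous genes were lower, and the 8 luminal progenitor genes had a median of -0.53. Of 14 adipocyte genes 11 were over 2-fold higher. The part of these lists in the ratios of the factors was not tested.

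In BALB/c glands, those with vitamin D5 and those without differed by over 2-fold in 0 of 8 factors, where 8.80% of genes did. The ratios were positive for 7 of 8 factors, led by Cebpb (0.54), Elf5 (0.35), Elf3 (0.34) and Id2 (0.34), each beyond the technical SD of 0.23, but the median ratio of all genes was 0.16 and that of the 23 epithelial genes 0.42. The scaled median absolute deviation of all genes was 0.32. With the epithelial median subtracted, 1 of 8 was positive, Cebpb at 0.12, and centred on the epithelial genes 0 of 8 were. Among milk genes good on both arrays, Csn1s1 (2.48) and Csn3 (1.58) were furthest apart.

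BALB/c and WT glands at 24 days without vitamin D5 differ in strain, and the title of the BALB/c array does not state whether DMBA was given. Again 0 of 8 factors passed 2-fold, where 18.4% of genes did. Elf5 was higher in BALB/c glands (0.35) and Elf3 (-0.48), Cebpb (-0.46) and Ehf (-0.44) were lower by more than the technical SD of 0.33, while Stat5a (-0.27), Id2 (0.15), Foxa1 (-0.08) and Gata3 (0.06) were within it. The median of all genes was -0.31, and their scaled median absolute deviation was 0.56. Of 14 adipocyte genes 12 were over 2-fold lower in BALB/c glands and 5 of 6 macrophage genes were, and their part was not tested. Centred on the epithelial genes, Elf5 passed 2-fold, at 1.17, and Ehf (0.38), Elf3 (0.34) and Cebpb (0.36) turned positive, where 19.5% of all genes were over 2-fold higher. With the median epithelial ratio subtracted, Elf5 was inside 2-fold, at 0.92, and Ehf (0.13), Cebpb (0.11) and Elf3 (0.09) were near 0.

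The genes with the most similar profile to each factor were ranked by Pearson's r over the 7 arrays among 9337 other genes good on all of them. The 7 points share scaling and 1 far αERKO array, so r is a description. For Elf5 the nearest were Irx2 (r = 0.996), Ptpn18 (0.994) and Folr1 (0.994), and without the αERKO array these had r of 0.975, 0.969 and 0.956 over 6 arrays. For Ehf they were Mapk13, Slc35e3 and Atpif1 (0.995 to 0.996). For Cebpb they were Ssr4, Ceacam20 and Rnf6 (0.989 to 0.992), of which Ceacam20 and Rnf6 fell to 0.824 and 0.845 without the αERKO array. For Id2 they were Lima1, Wfdc18 and Wtip (0.993 to 0.996). For Stat5a they were Fzd2, Fabp7 and Ccdc97 (0.966 to 0.989), and for Elf3 Tax1bp3, Utp11 and Rdh10 (0.986 to 0.992). For the level factors the nearest were Fbp2, Taok3 and Rcan3 (Gata3, 0.938 to 0.961) and Pcdhb15, Neil1 and Pomt1 (Foxa1, 0.963 to 0.972), whose order rests on differences within the technical SD.

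Among the factors themselves, likeness over the 7 arrays rested in part on the αERKO array. Elf5 and Ehf had r = 0.968 over 7 arrays and 0.699 over the 6 without αERKO, Elf5 and Cebpb 0.949 and 0.363, and Cebpb and Id2 0.977 and 0.573. Ehf and Elf3 ran the other way, with 0.804 over 7 arrays and 0.902 over 6. Elf5 and Stat5a had r = -0.20 over 7 arrays and -0.88 over the 6 others, where Stat5a was highest and Elf5 lowest on the DMBA-treated WT array.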

How the data were processed

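RNA was measured on 7 CodeLink arrays, 1 per group. The authors scanned and quantified the arrays with the CodeLink Expression Analysis software, and deposited for each spot an intensity from which the local background had been subtracted. A deposited normalized intensity and a series table of normalized values were also present; the rows of the latter are numbered without probe names, and it was not used here. Each of the 34967 gene probes was scaled to the median of its array, as in the authors' methods, and put on the log2 scale. Probes were named through the RefSeq table of GRCm38.p6, which matched 14763 of the 15553 probes with a RefSeq accession to 13971 symbols, and a gene is given by its probe with the highest mean log2. A comparison used genes good on at least 1 of its arrays, and a factor of 2 was the threshold. The technical SD came from 567 to 599 pairs of probes of the same accession, good on both arrays.

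The genes named are the 10 factors, Esr1 and Esr2, up to 4 genes per list and comparison with the largest ratio among those good on both arrays, and the 3 genes most like each factor. Epcam, Krt7, Krt18, Prlr, Jak2, Cd3e, Ckm, Myh4, Actn3, Pvalb and the levels of Csn2 were named after their values were seen. The factors and all lists were chosen with earlier results of these data known. Alternatives were quantile, 75th percentile and cyclic loess scaling, centring on epithelial genes, normexp with an offset of 50, the deposited normalized intensity, a floor at the detection limit, other filters and thresholds of 1.5-fold and 3-fold. The counting was tested on simulated arrays with noise below the technical SD of the real ones and planted changes well beyond 2-fold. That test checked the counting only, and not how often technical error passes 2-fold. R 4.3.3 with limma 3.58.1, Python 3.11.15, numpy 2.4.6, pandas 2.3.3 and matplotlib 3.10.9 were used. Precision is limited by having 1 array per group.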

Additional observations from a re-analysis of the deposited data

How the results depend on the processing

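The number of factors over 2-fold was recomputed under 13 alternatives in each of 7 comparisons, and 82 of the 91 counts were within 1.5 times the first count. Part of these counts could not move. The filters and the mean over probes leave single probes as they are, and a 3-fold threshold cannot change a count of 0. A count can also stay the same while the factors or their directions change, so the tally does not measure robustness. On the αERKO array 4 to 6 factors passed 2-fold against DMBA-treated WT glands and 4 to 6 against the array labelled βERKO, but different factors did so under the epithelial settings, as given above. The array labelled βERKO against DMBA-treated WT glands gave 2 factors at a threshold of 1.5-fold (Stat5a and Elf3) and 1 with the median epithelial ratio subtracted (Stat5a). WT glands with against without DMBA gave 1 (Stat5a) with quantile normalization, with cyclic loess and with epithelial centring, 4 at 1.5-fold, and 4 with the median epithelial ratio subtracted (Gata3, Foxa1, Stat5a and Id2, all higher, as were 42.4% of all genes). WT glands at 24 against 10 days gave 1 at 1.5-fold (Id2), and BALB/c against WT glands gave 1 with epithelial centring (Elf5). The cause of these differences was not tested, apart from the lower threshold, which admits smaller ratios by construction. Of 504 single ratios of the factors, 407 moved by less than the technical SD, 97 moved by more and 0 of those over 2-fold changed sign. Of the 97, 88 came from the epithelial settings, which move all genes together.

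The filters and the mean over probes left every value as it was, each factor having 1 probe that was good on all arrays. The series table was not run, because its rows carry no probe names. No paired analysis was possible because each group has 1 array, and for the same reason no replicate was left out in turn. On the αERKO array the intensity of Ehf after background subtraction was 47.8 and that of Elf3 86.7, where the median local background was 81.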
